A study of Mus musculus with 10 samples.

Results

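The microRNAs (miRNAs) of the fasted wild-type liver were described from 5 arrays, one for each of 5 liver samples numbered WT 1 to WT 5, out of 10 arrays in the series. The mice were wild type (WT), 4 months old and on the FVB/N background, and the study states that the livers were collected after an overnight fast. They were taken by their labels alone, and the 5 arrays of LivPGC-1α mice, which overexpress the coactivator PGC-1α in the liver, were not compared here. The labels say only that these are 5 numbered livers, so the spread given is the spread between these samples. All 655 miRNA entries of the array were used, and since a single group was described, no comparison between groups was tested.

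A miRNA is an RNA of about the length of the sequences printed below, cut from one arm of a hairpin and loaded into an Argonaute protein, which it guides to messenger RNAs. Pairing runs mainly through its bases 2 to 8, the seed, so that miRNAs with the same seed form a family with overlapping targets. In hepatocytes miR-122 is the classic dominant miRNA, and other liver cells bring their own: miR-126 marks endothelium, miR-223 and miR-142 mark leukocytes, and miR-451 and miR-144 come from erythroid cells and remain in blood. The array reports a fluorescence signal in arbitrary units. Probes differ in how well they label and hybridise, so "bright" below describes a signal and not a number of molecules.

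The sequences of bright miRNAs with a RefSeq match are shown first, because their seeds define the families described later. They are the mature forms of the GRCm38.p6 annotation, written 5′ to 3′ with the seed in capitals.
miR-21 (chr11:86584120-86584141, minus strand): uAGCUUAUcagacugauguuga
miR-451 (chr11:78073186-78073207, plus strand): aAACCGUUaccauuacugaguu
miR-16 (chr14:61631936-61631957, minus strand and chr3:69009918-69009939, plus strand): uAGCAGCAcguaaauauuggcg
miR-26a (chr10:126995543-126995564, plus strand and chr9:119031811-119031832, plus strand): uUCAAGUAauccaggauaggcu
miR-126-3p (chr2:26591402-26591423, plus strand): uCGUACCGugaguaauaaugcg
miR-191 (chr9:108568325-108568347, plus strand): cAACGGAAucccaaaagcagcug
miR-29c (chr1:195037600-195037621, plus strand): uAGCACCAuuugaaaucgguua
miR-103 (chr11:35782447-35782469, plus strand and chr2:131288103-131288125, plus strand): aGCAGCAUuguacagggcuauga
miR-101a (chr4:101346957-101346977, minus strand): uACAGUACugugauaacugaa
miR-148a (chr6:51269829-51269850, minus strand): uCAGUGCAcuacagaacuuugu

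Several of these miRNAs lie inside protein-coding genes. In the GRCm38.p6 gene table, miR-21 lies within the span of Vmp1, both arms of miR-126 within Egfl7, miR-191 within Dalrd3, the copies of miR-26a within Ctdsp2 and Ctdspl, and the copies of miR-103 within Pank2 and Pank3. Of the 20 brightest entries, 9 lay within the span of another gene, as did 204 of the 414 detected on all 5 arrays and 311 of the 578 with a locus in the table (53.8%), the first pair of totals including entries with no locus. Among the matched sequences, 16 of the 20 brightest had one, and 12 of these 16 began with U. A U at the first base was found in 46 of the 72 matched sequences among the 100 brightest entries (63.9%), in 116 of the 262 detected on all 5 arrays (44.3%) and in 160 of all 384 matched (41.7%). GC content was lower among brighter entries, with a median of 40.9% in the matched sequences of the 20 brightest, 43.5% in the 100 brightest, 45.6% in those detected on all 5 arrays and 47.7% in those detected on none. Across the 262 sequences, which share the same arrays, Spearman's rho of signal was -0.19 with GC content and 0.01 with length, given as a description.

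An entry was called detected on an array at a detection p-value of 0.01 or less, which sets its signal against the negative controls of that array. Detection was broad and mostly all or none. Of the 655 entries, 414 (63.2%) were detected on all 5 arrays and 146 (22.3%) on none. Only 95 lay between, with 35 detected on 1 array, 19 on 2, 9 on 3 and 32 on 4. The number detected was 454 on WT 1, 482 on WT 2, 480 on WT 3, 459 on WT 4 and 423 on WT 5, or 459.6 ± 23.9 (SD, n = 5). Signals just inside the limit differed little from those just outside it: the lowest detected signal and the highest undetected signal were 942 and 939 on WT 1, 1065 and 1061 on WT 2, 1072 and 1067 on WT 3, 895 and 892 on WT 4, and 1301 and 1291 on WT 5. WT 5 had the highest limit. It lacked 30 entries that the other 4 arrays detected, against 1 such entry on WT 1, 1 on WT 4 and none on WT 2 and WT 3.

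**Figure D1:**
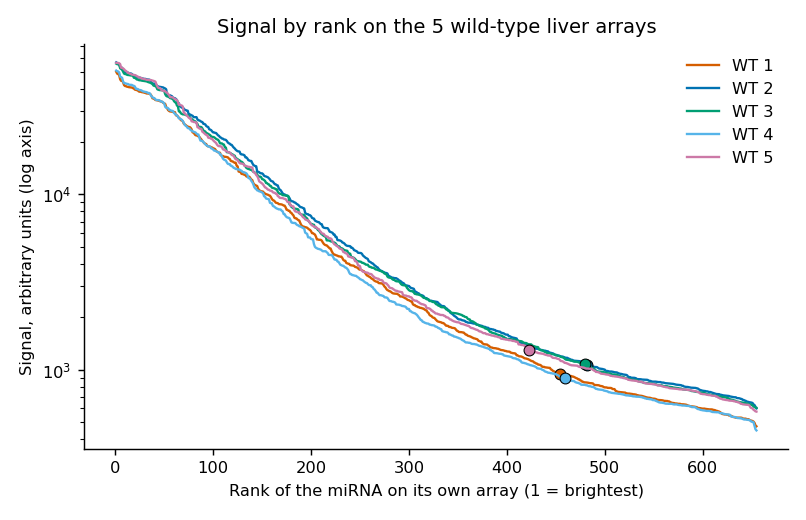
Signal (arbitrary units, log axis) against rank for all 655 miRNA entries, with 1 line for each of the 5 wild-type liver arrays. The black-edged point on each line is the lowest detected signal, between 895 on WT 4 and 1301 on WT 5. The lines fall steadily with no step, and WT 1 and WT 4 run below the other 3 arrays.

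The signal curve was flat at the top. The median signal over the 5 arrays was 55757 at rank 1, 35886 at rank 50, 19207 at rank 100 and 6211 at rank 200, so that rank 1 was 1.21 times rank 20 and 8.98 times rank 200. In total, 39 entries had a median above 40000 and 159 above 10000. The 20 brightest entries carried 17.2 ± 0.46% (SD, n = 5) of the summed signal and the 100 brightest 62.9 ± 0.94%, while the 146 never detected still carried 1.92 ± 0.04%, because background was not subtracted. The median signal of all entries differed between arrays, at 1917 on WT 1, 2435 on WT 2, 2359 on WT 3, 1758 on WT 4 and 2091 on WT 5.

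The 4 brightest entries by median were miR-21, miR-126-5p, miR-122 and miR-451, which are known from different cell types. miR-21, a widely expressed miRNA, had a signal of 48607 to 56041 with a median of 55757. miR-126-5p, from the endothelial hairpin in Egfl7, had 48851 on WT 1, 56676 on WT 2, 55329 on WT 3, 50413 on WT 4 and 56285 on WT 5. miR-122 had 47905, 55325, 55276, 49632 and 55348 on WT 1 to WT 5. The 3 arrays WT 2, WT 3 and WT 5 were thus brighter than WT 1 and WT 4 for all of these miRNAs, as they were for the array median. miR-451, an erythroid miRNA processed by AGO2 without Dicer, had 50062, 56191, 55186, 50910 and 56227 on the same arrays. miR-122 ranked between 3 and 5 on single arrays, and miR-451 between 1 and 4.

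Ranks 5 to 9 were held by miR-16 (median 52416), which represses cell cycle genes, miR-26a (51974), linked to insulin signalling and glucose metabolism in mouse liver, miR-126-3p (51475), miR-191 (50217) and let-7f (48622). Rank 10 was miR-720 (48537), a name since withdrawn as a likely transfer RNA fragment. The rest of the 20 were miR-29c, solexa-5560-82, miR-125b-5p, miR-103, miR-101a, miR-29b, let-7a, miR-148a, miR-22 and let-7b, with medians between 48155 and 45899. Their order was only partly fixed. Of the 19 pairs of neighbours in this order, 8 stood in the same order on all 5 arrays. The pair miR-21 and miR-126-5p did so on 1 array and miR-122 and miR-451 on 1 array, whereas miR-451 exceeded miR-16, and miR-16 exceeded miR-26a, on all 5. A total of 28 entries were among the 20 brightest of some array, and 15 were among them on all 5.

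**Figure D2:**
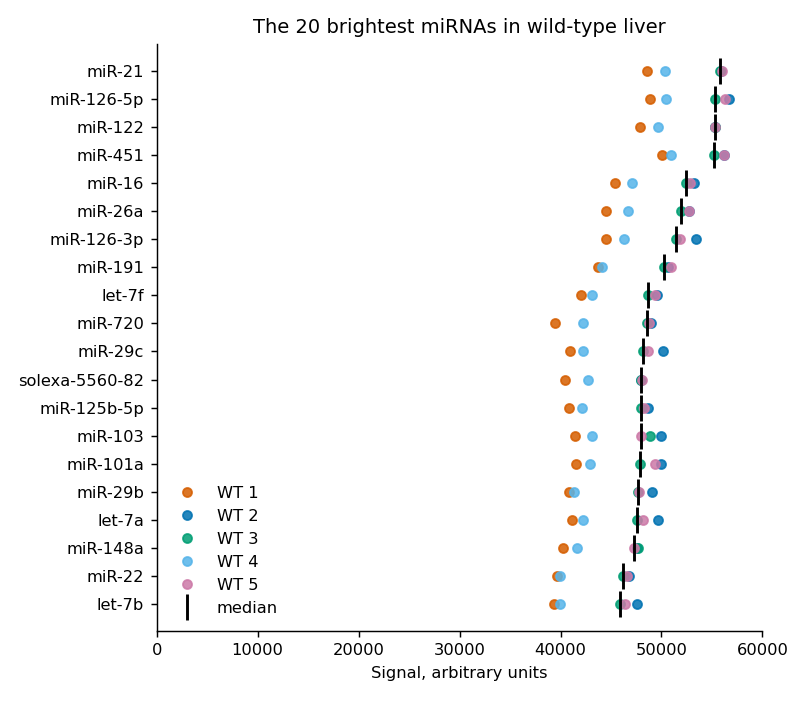
Signal (arbitrary units, axis from 0) of the 20 brightest miRNA entries, ordered by median from the top. Each point is 1 of the 5 arrays and the black bar is the median. WT 1 and WT 4 lie left of the other 3 arrays in every row, and the medians run only from 55757 for miR-21 to 45899 for let-7b.

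Marker lists were used to set the tissue label against the data, and they were chosen with earlier results of these arrays known. All 10 hepatocyte entries were detected on all 5 arrays, against 63.2% of all entries, with a median rank of 52.5 of 655, and they held 5.97 ± 0.13% of the summed signal (SD, n = 5). Besides miR-122 they included miR-101a (median 47833), miR-148a (47289), which targets the LDL receptor, miR-192 (44600), miR-101b (39301), miR-194 (31818), miR-365 (31725), miR-455 (23166) and miR-193 (21852). miR-802, an obesity-linked miRNA of liver, was the dimmest, at 3711, 4101, 5302, 2956 and 3514 on WT 1 to WT 5. In bulk tissue, fewer cells of a type and less RNA per cell cannot be told apart. The 2 endothelial entries held 1.85 ± 0.06% of the signal, the 3 erythroid entries 1.59 ± 0.13% with miR-486 at 26034, the leukocyte list 3.09 ± 0.21% with 10 of 11 entries detected on all 5 arrays and miR-142-3p (35886) the brightest, and the list for stellate cells, fibroblasts and smooth muscle 2.63 ± 0.13% with 5 of 6.

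Other cell types were represented too, so detection alone did not separate liver from other tissue. Of 11 biliary and other epithelial entries, 10 were detected on all 5 arrays, among them miR-203 (median 27147), miR-31 (25627) and miR-200b (16138). Of 11 brain entries, 7 were detected on all 5, a share near the 63.2% of all entries. The brightest brain entry was miR-137, detected on all 5 arrays with a median of 20199, at rank 97. The neuronal miR-124, miR-9, miR-153 and miR-383 were among the 146 detected on no array, with medians of 854, 796, 759 and 753. Of 6 pancreas entries, 4 were detected on all 5 arrays, also a share near that of all entries, with miR-7a the brightest. miR-216a and miR-217 of the acinar cell were detected on none, while miR-216b was detected on all 5. The islet miRNA miR-375 had a median of 2613. Of 16 entries from embryonic stem cell clusters, 6 were detected on all 5 arrays and 5 on none, against 63.2% and 22.3% of all entries.

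Among miRNAs that act on lipid and glucose metabolism, 16 of 17 entries were detected on all 5 arrays, against 63.2% of all entries, and their median signal was 34821. The brightest were miR-26a, miR-103, miR-29c, miR-29b, miR-143 (median 43579) and miR-378 (37348), which lies within Ppargc1b, the gene of PGC-1β. miR-33 lies within Srebf2 and restrains cholesterol export through ABCA1. It was much dimmer, at 1879, 3003, 2085, 2057 and 2249 on WT 1 to WT 5. miR-34a, which targets SIRT1, had 7203, 10347, 9844, 6887 and 9027. miR-370 was detected on no array. Of the 12 miRNAs that the study names as regulators of PGC-1, 11 were detected on all 5 arrays, and the list held 5.61 ± 0.05% of the signal with the undetected miR-696 included. The brightest of them were miR-29c, miR-29b (47712) and miR-19b (43239).

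For spread between the livers, signals were quantile-normalized over the 5 arrays and the SD of the log2 value was taken for the 414 entries detected on all 5. The median SD was 0.11, against 0.18 without normalization, the quartiles were 0.07 and 0.18, and 338 entries (81.6%) had an SD under 0.2. The median coefficient of variation was 7.55%. Spread depended on signal, with a median SD of 0.13 in the dimmest sixth (signals of 1097 to 1797), 0.17 in the next, and 0.03 in the brightest sixth (27654 to 55757), where it was 0.13 without normalization and where the signal curve is flat. Between pairs of arrays, Pearson's r of the log2 signal over the 655 entries was between 0.961 for WT 1 with WT 5 and 0.997 for WT 2 with WT 4. With the mean of the other 4 arrays, r was 0.979 for WT 1, 0.982 for WT 3 and 0.979 for WT 5, and 0.995 for WT 2 and 0.996 for WT 4.

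Below a median signal of 18740, the upper quartile of detected entries, miR-339-5p was the least variable, at 12157, 15513, 13930, 12405 and 14352 before normalization and an SD of 0.01 after it. The next 9 in order, up to an SD of 0.04, were miR-362-3p, miR-450b-3p, miR-98, miR-681, miR-337-5p, miR-689, miR-546, miR-219 and miR-140, which are encoded on several chromosomes. At the other end, 18 entries (4.35%) had an SD over 0.5. For 13 of them the array farthest from the median was WT 5, for 3 WT 3 and for 2 WT 1, always on the high side. Without that array the SD of each of the 18 was 0.5 or less. Detection on all 5 arrays was required and background is in the signal, so dim entries had little room to fall. The direction is therefore partly fixed for them. Neither WT 2 nor WT 4 was the farthest array for any.

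**Figure D3:**
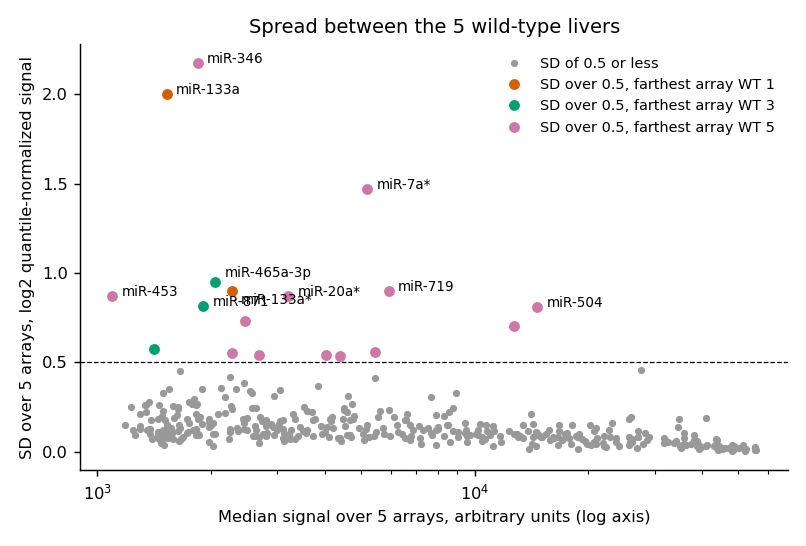
SD over the 5 arrays of the log2 quantile-normalized signal against median signal (arbitrary units, log axis) for the 414 miRNA entries detected on all 5 arrays. The 18 entries above the dashed line at 0.5 are coloured by their farthest array, which is WT 5 for 13, WT 3 for 3 and WT 1 for 2. Most grey points lie below 0.2, and the spread narrows above a signal of about 27654.

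Each of these 3 arrays had its own set of miRNAs. Counting every entry detected on at least 1 array whose normalized signal was over 2 times the median of the other 4 arrays, there were 7 on WT 1, 15 on WT 3, 20 on WT 5 and none on WT 2 or WT 4. Many of these entries passed detection only through the array where they were high: 2 on WT 1, 9 on WT 3 and 5 on WT 5 were detected there alone. Those detected on all 5 arrays numbered 2 on WT 1, 3 on WT 3 and 14 on WT 5. No entry was as far below the others on any array, though background limits how far a dim entry can fall. The sequences of members of the 3 sets are given because the results on spread turn on them.
miR-206 (chr1:20679055-20679076, plus strand): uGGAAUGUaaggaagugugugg
miR-499 (chr2:155622893-155622913, plus strand): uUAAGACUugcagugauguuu
miR-741 (chrX:66796809-66796831, minus strand): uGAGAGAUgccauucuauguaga
miR-880 (chrX:66800540-66800561, minus strand): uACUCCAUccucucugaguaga
miR-743a (chrX:66776760-66776781, minus strand): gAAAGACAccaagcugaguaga
miR-346 (chr14:34894624-34894646, plus strand): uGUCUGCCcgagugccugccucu
miR-504 (chrX:59097705-59097726, minus strand): aGACCCUGgucugcacucuauc
miR-675-5p (chr7:142577112-142577133, minus strand): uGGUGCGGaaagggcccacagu

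On WT 1 the set consisted of miRNAs of striated muscle and of miR-10b. miR-133a, which with miR-1 controls muscle differentiation, had a signal of 29441 on WT 1, against 1528, 1483, 1621 and 1388 on WT 2 to WT 5. miR-206, the skeletal muscle member of the miR-1 family, had 28250 on WT 1, against 718, 799, 961 and 709, and was detected only on WT 1 and WT 4. miR-133b, encoded beside miR-206, had 15930 on WT 1, against 1696, 1365, 1205 and 1291. miR-499 lies within the myosin gene Myh7b and had 10553 on WT 1, against 797, 883, 844 and 895, and it was detected on WT 1 alone. WT 1 thus lay far above the other 4 livers for these 4 miRNAs, whose values on the other arrays were at most 1696.

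The rest of the muscle list moved less or not at all. miR-1 had 2664 on WT 1, against 978, 921, 710 and 832, and it too was detected on WT 1 alone. miR-208a, within the cardiac myosin gene Myh6, was detected on no array, and miR-208b, within Myh7, had 1271 on WT 1, against 1697, 1421, 1095 and 1232. Summed over the 7 entries, the muscle list held 1.76% of the signal on WT 1, against 0.134%, 0.132%, 0.143% and 0.122% on WT 2 to WT 5. Its entries detected numbered 6 on WT 1, against 3, 3, 4 and 1. Of all 655 entries, 69.3% were detected on WT 1, against 73.6%, 73.3%, 70.1% and 64.6%. miR-10b, of the HoxD region and common in muscle and fibroblasts, had 5501 on WT 1, against 1933, 1393, 1058 and 1219. The erythroid list was also highest on WT 1, by far less, at 1.79% of the signal, against 1.49%, 1.52%, 1.65% and 1.52% on WT 2 to WT 5. Its miR-144 had 10366 on WT 1, against 7760, 7661, 6514 and 7121, and miR-486 had 29935, against 27601, 26034, 24901 and 25902. After normalization miR-451 was as high on WT 4 as on WT 1. A second probe for miR-144 gave 21754 on WT 1, against 22869, 20983, 19074 and 20095 on WT 2 to WT 5. These signals are before normalization, and the median signal of WT 1 was below that of WT 2, WT 3 and WT 5. The miR-122 signal of WT 1 was the lowest of the 5 before normalization, as was that of the other 3 brightest miRNAs. The part of the muscle and erythroid markers in other values of WT 1 was not tested.

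On WT 3 the set came from the X chromosome. It held 14 entries that the file places on X and a second probe for one of them with no chromosome given. The X-linked testis cluster is a run of related miRNAs best known from germ cells of the mouse testis. Of its 23 entries, 18 were highest on WT 3 after normalization, against 74 of the 414 entries detected on all 5 arrays. These counts come from unlike sets. Only 8 of the 23 were detected on all 5 arrays and 2 on none, and several passed detection through WT 3 alone. On WT 3, 21 of the 23 were detected, against 11 on WT 1, 15 on WT 2, 12 on WT 4 and 8 on WT 5. Of all 655 entries, 73.3% were detected on WT 3, against 69.3%, 73.6%, 70.1% and 64.6% on WT 1, WT 2, WT 4 and WT 5. miR-880 had 9848 on WT 3, against 834, 1119, 740 and 780 on WT 1, WT 2, WT 4 and WT 5. miR-470 had 9841 on WT 3, against 1128, 1416, 1033 and 1196. The probe shared by the 3p arms of miR-465a, miR-465b and miR-465c had 10180 on WT 3, against 2054, 2660, 1915 and 1991.

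Members of the cluster differed in how far they stood out. miR-741 (4951), miR-743b-3p (3673) and miR-743a (3027) were detected on WT 3 alone, the other arrays giving at most 861, 850 and 882. miR-871 had 7654 on WT 3, against 1845, 2763, 1726 and 1910. By contrast, miR-547 had 2104 on WT 3, within the range of 1780 to 2308 on the other arrays, and miR-463 had 4124 there, within 3030 to 5064. miR-547 and miR-201 belong to a separate run of genes in the table. The list as a whole held 1.67% of the signal on WT 3, against 0.699%, 0.767%, 0.660% and 0.623%. These are also repeated and closely related genes, so that the signal of a probe may include its relatives.

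On WT 5 the set was mixed. Its 20 entries lay on chromosomes 2, 7, 11, 12, 13, 14 and X among others. miR-346, which lies within Grid1, had 50049 on WT 5, against 1150, 1948, 1562 and 1846 on WT 1 to WT 4, and so ranked among the brightest on that array alone. The starred arm of miR-7a had 50602 on WT 5, against 4227, 5721, 4283 and 5199. miR-504, within Fgf13, had 52353 on WT 5, against 11608, 15608, 14652 and 13170. miR-719 had 24098, against 5222, 6943, 5920 and 4961. miR-212, of a pair with miR-132 that responds to CREB, had 38966 on WT 5, against 11286, 14470, 12701 and 11442. miR-675-5p, cut from the imprinted H19 transcript, had 5388 on WT 5, against 589, 774, 694 and 571, and was detected on no other array.

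Other values of WT 5 differed as well. It had the fewest detected entries (423) and the highest detection limit (1301). Its deviations from the mean of the 5 arrays had an SD of 0.35 over the 414 entries, against 0.24 on WT 1, 0.15 on WT 2, 0.22 on WT 3 and 0.14 on WT 4. The 13 sequences matched among its 20 entries had a median GC content of 54.5%, against 45.5% for all 384 matched and 36.4% for the 7 matched in the WT 3 set. Partners and neighbours of these miRNAs varied. miR-7a, the other arm of the miR-7a* hairpin, had 27161 on WT 5, within the range of 24584 to 30108 on the other arrays. miR-132, the neighbour of miR-212, had 11387, within 8213 to 13431. On chromosome 12, miR-453, miR-654-3p, miR-323-5p and miR-341 were in the set. There miR-758 was 1.69 times the median of the other arrays on WT 5. By contrast, miR-323-3p, the other arm of the miR-323-5p hairpin, was 0.74 times that median. A second probe for miR-341 had 15696 on WT 5, against 18133, 22574, 19549 and 16008 on WT 1 to WT 4. Whether the limit of the array or the base composition of these entries had a part in the result was not tested.

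**Figure D4:**
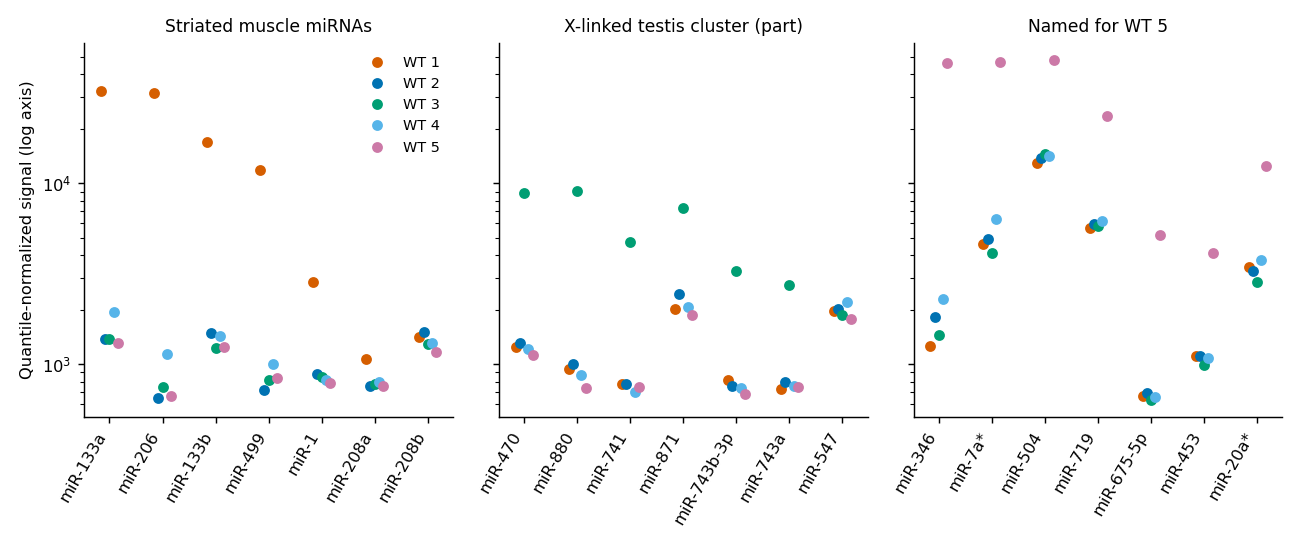
Quantile-normalized signal (arbitrary units, log axis) of 7 striated muscle miRNAs (left), 7 miRNAs of the X-linked testis cluster (centre) and 7 miRNAs named for WT 5 (right), with 1 point for each array. WT 1 lies above the other 4 arrays for 6 of the muscle miRNAs, WT 3 for all of the X-linked ones shown but miR-547, and WT 5 for all 7 on the right.

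Detection on a single array repeated this only in part. Of the 35 entries detected once, 16 belonged to the 3 sets and 19 did not. The 35 comprised 2 on WT 1, 11 on WT 2, 16 on WT 3, none on WT 4 and 6 on WT 5. On WT 3, 7 of the 16 lay outside its set, 5 of them from chromosome 12 (miR-409-3p, miR-136, miR-495, miR-377 and miR-337-3p). Those of WT 2 lay at the limit, the brightest being miR-302a* with 1203, miR-197 with 1169 and miR-509-5p with 1168, where the lowest detected signal was 1065. Those of WT 5 next to miR-675-5p were miR-466d-5p with 2172 and miR-323-5p with 1684. A milder pattern concerned the imprinted Dlk1-Dio3 region of chromosome 12, and it was picked out after the values were seen. Of 75 entries from its runs of genes, 33 were detected on all 5 arrays and 28 on none, a smaller and a larger share than the 63.2% and 22.3% of all entries. For 12 of the 33, WT 2 and WT 4 were both below WT 1, WT 3 and WT 5 after normalization, as they were for 21 of all 414. For example, miR-376b had a normalized signal of 9857, 6905, 12755, 8902 and 10725 on WT 1 to WT 5.

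Both arms of a hairpin were represented by a probe in 171 pairs, and in 140 of them at least 1 arm was detected on all 5 arrays. miR-125b-5p enters 2 pairs, since 2 probes stand for its other arm. miR-24, miR-30c, miR-181a and miR-218 also enter 2 pairs each, with starred probes of 2 different hairpins. A named arm shared by several hairpins may take signal from all of them, so its ratio is not that of a single hairpin. One arm usually dominated the signal, and it was the same arm in every liver. The brighter arm was the same on all 5 arrays in 127 of the 140. The median signal ratio of the brighter over the other arm was 4.12, with quartiles of 2.07 and 13.2. It exceeded 10 in 41 pairs and was under 2 in 33. In 29 pairs the dimmer arm was detected on no array, and background is included in both signals of every pair. One of the 29 is miR-411*, whose second probe was detected on all 5 arrays with a median of 13001, above the 2546 of miR-411, so the order of those arms depends on the probe. The median SD of the log2 ratio over the 5 arrays was 0.15.

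The extremes were as follows, and the sequences of the widest pair and of a pair in which the starred arm was the brighter one are given.
miR-125a-5p (chr17:17830817-17830840, plus strand): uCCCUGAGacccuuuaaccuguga
miR-125a-3p (chr17:17830855-17830876, plus strand): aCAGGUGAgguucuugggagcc
miR-33 (chr15:82198127-82198147, plus strand): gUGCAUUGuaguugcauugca
miR-33* (chr15:82198167-82198188, plus strand): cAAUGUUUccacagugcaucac

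The widest ratio was that of miR-125a, with 34410, 43081, 42656, 34116 and 38084 for the 5p arm on WT 1 to WT 5, against 545, 707, 675, 504 and 655 for the 3p arm, which was detected on no array. The signal ratio was 62.5. It was followed by let-7c over let-7c-1* with 44.4, miR-125b-5p over miR-125b-3p with 40.7 and over miR-125b* with 39.6, miR-30b over miR-30b* with 38.1, miR-145 over miR-145* with 36.2 and miR-542-3p over miR-542-5p with 36.1. miR-92a (33.9), miR-708 (32.7) and miR-374 (32.5) completed the 10 widest. let-7c and miR-92a are each encoded at more than 1 place, so their ratios may not be those of a single hairpin. At the other end both arms of miR-126 were among the brightest of all entries, with a ratio of only 1.08 that favoured miR-126-5p on all 5 arrays. The arms of miR-532 (ratio 1.00), miR-501 (1.01), miR-129 (1.03) and miR-877 (1.05) could not be ordered, since the brighter arm changed between arrays.

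The star in these older names marks the arm that was once taken as the minor product. The brighter arm of a pair was the one with the higher signal by the mean log2 ratio over the 5 arrays. Among 96 pairs with a starred name, the starred arm was brighter in 12, and on all 5 arrays in 8. Such a mean can rest on 1 array. miR-877* is among the 12 though brighter on only 2 arrays, and miR-470* is not, though brighter on all arrays but WT 3. The brightest was miR-140*, from a hairpin within Wwp2, with a median of 24171 against 17974 for miR-140 and a ratio of 1.29. miR-872* had 12356 against 2241 (ratio 5.53), miR-33* 8454 against 2085 (3.85), miR-200c* 5170 against 2946 (1.88) and miR-295* 5075 against 1797 (2.69). miR-183*, miR-330* and miR-136* also exceeded their partners on all 5 arrays. Of the 44 pairs named by arm, the 5p arm was brighter in 23 and the 3p arm in 21.

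The brighter arm was not the same on all arrays in 13 pairs, and in several of these the single array was one already named. miR-7a exceeded miR-7a* by 2.37 to 2.80 on the log2 scale on WT 1 to WT 4, whereas WT 5 gave -0.90. miR-10b* exceeded miR-10b by 1.57 to 1.73 on WT 2 to WT 5, with -0.39 on WT 1. For miR-133a* over miR-133a, WT 1 gave a log2 ratio of -1.87, against 0.27 to 0.81 elsewhere. For miR-470 over miR-470* the ratio on WT 3 was 2.16 in log2, the other arrays giving values between -0.40 and -0.19. The remaining pairs were miR-466d, miR-299, miR-574, miR-503, miR-382, miR-877, miR-129, miR-501 and miR-532.

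**Figure D5:**
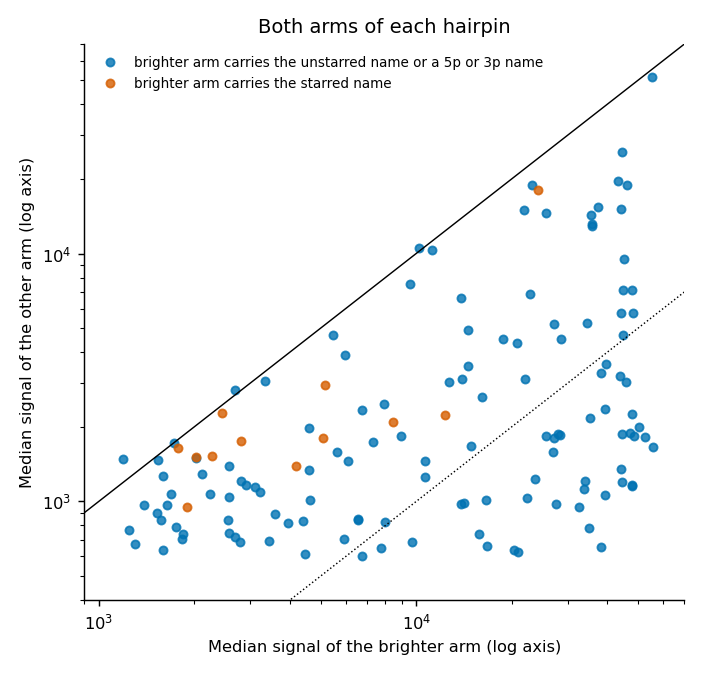
Median signal over 5 arrays (both axes log) of the brighter arm and of the other arm for 140 hairpin pairs with an arm detected on all 5 arrays. The solid line marks equal signals and the dotted line a ratio of 10. The brighter arm is the one by the mean log2 ratio over the arrays. Orange points are the 12 pairs whose brighter arm carries the starred name, and the point nearest the top of the solid line is miR-126.

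Families were formed from identical bases 2 to 8 of the 384 matched sequences, with 6 unmatched members added by name. The let-7 family, an ancient group of tumour suppressors that represses growth genes, was the brightest of all. Its 9 members, all detected on all 5 arrays, held 5.65 ± 0.08% of the summed signal (SD, n = 5). They are printed in order of signal, since they share the seed and differ in few other bases. The gene table also has a copy of let-7a on chromosome 9, whose place is not printed.
let-7f (chr13:48537889-48537910, minus strand and chrX:151912353-151912374, plus strand): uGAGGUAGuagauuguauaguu
let-7a (chr13:48538239-48538260, minus strand): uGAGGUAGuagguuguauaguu
let-7b (chr15:85707325-85707346, plus strand): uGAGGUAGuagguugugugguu
let-7g (chr9:106178846-106178867, plus strand): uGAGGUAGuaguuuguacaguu
let-7d (chr13:48536078-48536099, minus strand): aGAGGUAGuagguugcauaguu
let-7i (chr10:122985698-122985719, minus strand): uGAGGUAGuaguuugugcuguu
let-7c (chr15:85706616-85706637, plus strand and chr16:77599672-77599693, plus strand): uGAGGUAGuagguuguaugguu
miR-98 (chrX:151913229-151913250, plus strand): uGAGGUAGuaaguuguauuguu
let-7e (chr17:17830366-17830387, plus strand): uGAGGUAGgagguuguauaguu

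The median signals were 48622 for let-7f, 47613 for let-7a, 45899 for let-7b, 45258 for let-7g, 44347 for let-7d, 39212 for let-7i, 35032 for let-7c, 11184 for miR-98 and 10969 for let-7e. Counted from the 5′ end, let-7a differs from let-7e by U9G, from let-7c by A19G and from let-7f by G12A. let-7a exceeded let-7e and let-7c on all 5 arrays, and let-7f on 1. miR-98 and let-7e could not be ordered, let-7e being the brighter on 2 arrays. Sequences this close may hybridise to one another's probes, so the values of single members are less certain than the sum.

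The 7 next families were those of miR-30, miR-15 with miR-16, miR-17, miR-29, miR-148, miR-125 and miR-26. The miR-30 family (miR-30a to miR-30e with miR-384-5p) held 3.81 ± 0.08% of the signal. Its first 5 members had medians of 43161 to 44799 and miR-384-5p, which shares the seed, had 762 and was detected on no array. The family of miR-16, miR-15b, miR-15a, miR-322, miR-195 and miR-497 held 2.81 ± 0.08%, and that of miR-20a, miR-17, miR-93, miR-106b, miR-106a and miR-20b, which drives cell cycle entry, 2.81 ± 0.16%. The miR-29 family, which represses collagens, held 2.25 ± 0.04%, with medians of 48155 for miR-29c, 47712 for miR-29b and 35444 for miR-29a. miR-29a differs from miR-29c by C10U and was dimmer on all 5 arrays. The miR-148 family held 1.77 ± 0.04%, the family of miR-125b-5p, miR-125a-5p and miR-351 1.62 ± 0.03%, and the pair of miR-26a and miR-26b 1.58 ± 0.04%.

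Genomic clusters were taken as runs of miRNA genes at most 10 kb apart. The brightest was the miR-17-92 cluster of chromosome 14, a MYC-induced transcript, at 3.99 ± 0.09% of the signal (SD, n = 5) over 10 entries. Of these, 2 also match a cluster on X, and without them the share was 2.69%. Shares without entries that match another place are given beside the others, since they change the order of the clusters. Its bright members were miR-20a (median 43929), miR-19b (43239), miR-17 (34555), miR-19a (34083) and miR-92a (32494). The cluster of let-7a, let-7f and let-7d on chromosome 13 held 3.19 ± 0.04%, or 1.26% from the entries of that place alone. The large Dlk1-Dio3 run with 37 hairpins on the array held 2.21 ± 0.15%, of which miR-679 was the brightest (19887). Its detected entries had a median of only 1613.

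The next clusters were small and bright. miR-23b, miR-27b and miR-24 on chromosome 13 held 2.19 ± 0.05% (1.42% without miR-24), and their paralogs miR-23a, miR-27a and miR-24 on chromosome 8 held 2.12 ± 0.03% (1.36%), with miR-24 counted in both. miR-30c with miR-30e on chromosome 4 held 1.98 ± 0.03%, or 1.20% without its shared entry. The miR-106b, miR-93 and miR-25 cluster of chromosome 5 held 1.82 ± 0.08% with no shared entry. miR-29c with miR-29b on chromosome 1 held 1.74 ± 0.02%, or 0.931% without miR-29b. By chromosome, the share of entries detected on all 5 arrays was 91.4% on chromosome 11 (32 of 35) and 85.7% on chromosome 4 (24 of 28). It was 63.2% of all 655. Among the lower shares were 47.1% on chromosome 12 (40 of 85), 47.2% on chromosome 2 (25 of 53) and 47.4% on chromosome 3 (9 of 19). X had 51.2% (42 of 82) and chromosome 7 had 52.8% (19 of 36).

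The array also carried 44 entries with provisional solexa names from early sequencing, and 29 of them (65.9%) were detected on all 5 arrays, close to the 63.0% of the entries with miRNA names. solexa-5560-82 had 40414 to 48053. A further 10 miRNAs had a second probe under an older name, which shows how far a signal depends on the probe. The signal ratio between the 2 probes of a name was between 1.12 and 23.5 with a median of 1.31, and it was over 2 for 4 of the 10. Of the 10, miR-412 and miR-760 were detected by neither probe on any array, and miR-471 by each on 1. Their ratios of 1.24, 1.18 and 1.29 largely set background against background and lower the median. The 2 probes of miR-101a had medians of 47833 and 41324 and those of miR-101b 39301 and 35164. In contrast, miR-341 had 700 with the current probe and 18133 with the older one, and miR-411* had 839 and 13001.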

How the data were processed

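Total RNA of 5 WT livers was labelled with biotin and hybridised by the study to Illumina miRNA BeadChips. GenomeStudio (version not given in the sources used here) summarised the beads. The authors deposited a signal intensity per probe without background subtraction or scaling, and a detection p-value beside it. The authors also deposited a table of intensities quantile-normalized over all 10 arrays. The study's methods excluded detection p above 0.01. Names were kept as on the array, and some are old.

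Ranks, arm ratios and shares used the deposited intensity. Spread used intensities quantile-normalized over the 5 WT arrays (limma 3.58.1, R 4.3.3), floor 1, on the log2 scale. Names were matched to RefSeq GRCm38.p6 miRNA sequences for 384 of 655 entries, and 578 had a locus in the gene table. The arm of older unstarred names came from a hand-written list. Array number limits the precision, and scripts were tested on simulated data.

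Members and lists were chosen with earlier results of these data known. Named miRNAs were drawn from the 20 brightest, the brightest of each list, and all hepatocyte, muscle, erythroid and endothelial members. They were also drawn from the 10 largest and smallest SDs and arm ratios, and from changing and starred arms. The 8 brightest families and clusters, and 3 per array of those detected once, gave further names. Not every miRNA that these rules pick is named. Others were chosen after their values were seen. Alternatives changed the detection limit, background correction and normalization, and left out each array. In the results given, the LivPGC-1α arrays entered only through normalization over all 10 arrays, including that of the authors' table.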

Additional observations from a re-analysis of the deposited data

Results flagged for a closer look

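Among 79 sets of 5 values checked, 30 had 1 array separated from the rest by a gap that Dixon's ratio places beyond its 95% limit for 5 samples. Chance gives about 1 in 20 for sets not picked by their values. Many of these were picked for their spread or for detection on 1 array, so the count describes that choice and is no test.

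WT 1 stood apart for the muscle miRNAs. The muscle list held 1.764% of the signal on WT 1, against a median of 0.133% on the other arrays. In normalized signal, WT 1 had 32467 for miR-133a, 31544 for miR-206, 16971 for miR-133b, 11773 for miR-499, 8775 for miR-133a*, 2840 for miR-1 and 1066 for miR-208a, the last being detected on no array, against medians of 1376, 704, 1337, 831, 2228, 835 and 769 on the others. miR-144 had 11432 on WT 1, against 7143.

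WT 3 stood apart for the X-linked cluster, with 1.669% of the signal against 0.680%. Its normalized signal was 9553 for the shared miR-465 3p probe, 7275 for miR-871, 4732 for miR-741, 3281 for miR-743b-3p and 2732 for miR-743a, against 2285, 2052, 760, 752 and 752. miR-802 had 5032 on WT 3, against 3568.

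WT 5 stood apart with normalized signals of 48209 for miR-504, 46683 for miR-7a*, 46344 for miR-346, 23661 for miR-719, 12505 for miR-20a*, 5175 for miR-675-5p, 4103 for miR-453, 2184 for miR-466d-5p and 1633 for miR-323-5p, against 13963, 4766, 1628, 5878, 3344, 660, 1094, 651 and 727. Small gaps among bright miRNAs were 50720 for miR-122, 46846 for miR-191 and 44536 for miR-103 on WT 5, 53946 for miR-126-5p on WT 2 and 38957 for miR-101b on WT 4. Quantile normalization gives arrays with the same rank the same value. The other arrays were thus tied at 48209 for miR-191 and at 53414 for miR-126-5p. Dixon's limit does not hold for tied values, so these gaps are only a description.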

How the results depend on the processing

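Of 92 alternative values for 10 results, 69 moved by less than the spread between arrays or by less than 1.5 times a count. Subtracting background or normexp correction raised the share of the 20 brightest entries to 18.5% and 18.5%, of the let-7 family to 6.05% and 6.03%, and of the miR-17-92 cluster to 4.22% and 4.21%, and the median log2 arm ratio to 3.13 and 2.97 (ratios of 8.75 and 7.81), while 127 pairs still had 1 brighter arm. The let-7 share was 5.73% in the authors' table. miR-122 ranked 4 after quantile normalization, in the authors' table and without any 1 array. The median SD was 0.184 without normalization, 0.0918 with cyclic loess and 0.0936 without the detection filter, which gave 38 entries over 0.5. With both arms detected, 74 of 84 pairs had the same brighter arm, with a median log2 ratio of 1.95. Leaving out 1 array gave 8 to 21 entries over 0.5, with 8 without WT 5. It gave 414 to 444 entries detected on all arrays, 146 to 162 on none, a median SD of 0.0969 to 0.112 and 128 to 133 pairs with the same brighter arm. No paired analysis was possible because only 1 group was described.

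As an addition chosen after seeing the data, 11 miRNAs that stood out on 1 array were recomputed under 8 settings each, and all 88 values stayed above the other arrays, as their choice nearly fixed. Sizes moved: with background subtracted, the log2 difference was 13.96 for miR-206, 12.15 for miR-675-5p and 10.23 for miR-741, against 5.49, 2.97 and 2.64 in the reported normalization. Background in the signal compresses every ratio near the detection limit of 895 to 1301, and the flat top of the curve limits the order of the brightest entries.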
